A study of Mus musculus with 4 samples.

Results

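The 10 genes described here make, cut, carry and load the peptides that MHC class I molecules show at the cell surface. They are Tap1, Tap2, Tapbp, Psmb8, Psmb9, Psmb10, Erap1, B2m, Psme1 and Psme2, and they were chosen by name. Every non-control probe that the array files assign to one of these symbols was taken, which gave 15 probes of 61307 on the array and 10 gene names of 50090. Of the gene names, 24981 were measured well enough to be tested, all 10 members among them.

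RNA was measured in C3H10T1/2, a mouse embryo fibroblast line that grows as a contact-inhibited monolayer and is used to score transformation by chemicals. A pair of arrays held RNA of untreated control cells after 6 weeks of culture. A second pair held RNA of cells given 2.5 µg/ml of 3-methylcholanthrene (3MC, a polycyclic aromatic carcinogen) for 2 days, then normal medium for 4 days, then 100 ng/ml of the phorbol ester tumour promoter TPA for 2 weeks, and normal medium again for the last 4 weeks. The exposed flasks were scored for transformed foci lying in a monolayer, so their RNA may have come from mixed cultures, which the labels do not say. The labels also name no vehicle for the control cells. All 4 libraries came from 1 line and were read on 1 slide, with the control arrays in the first positions. Position and group cannot be told apart. Whether a group's arrays hold RNA of separate flasks is not said in the labels. Its spread may therefore be technical, and each p-value speaks of these arrays alone.

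As background, proteins in the cytosol are cut by the proteasome. In cells that see interferon gamma, the 3 catalytic beta subunits of its core are replaced by the products of Psmb8 (LMP7), Psmb9 (LMP2) and Psmb10 (MECL-1), which gives the immunoproteasome, and the ring-shaped activator PA28, made of the products of Psme1 and Psme2, docks on its end. Peptides enter the endoplasmic reticulum through the transporter TAP, a pair of the Tap1 and Tap2 products, are trimmed there by the aminopeptidase of Erap1, and are loaded with the help of tapasin, the product of Tapbp, onto a class I heavy chain bound to beta-2 microglobulin, the product of B2m. Fibroblasts carry this pathway at a low to moderate level, and interferons raise it.

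Each value below is a log2 signal relative to the array's own 75th percentile, so that 0 is the brightness below which 75 percent of the probes lie. Levels were compared between arrays for 1 probe at a time, except where a difference within an array or a sum over a list is named. The probes are 60 bases long. The sequences of 6 probes are shown because the calls for Psmb9, Psmb8 and Psme2 and the second reading of Tap1 rest on them. They are written 5′ to 3′ as the array files give them.
Tap1 probe 2: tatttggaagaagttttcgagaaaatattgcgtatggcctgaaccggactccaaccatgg
Psmb9 probe: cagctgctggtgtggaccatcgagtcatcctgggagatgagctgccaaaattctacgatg
Psmb8 probe 1: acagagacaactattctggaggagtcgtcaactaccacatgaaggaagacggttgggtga
Psmb8 probe 2: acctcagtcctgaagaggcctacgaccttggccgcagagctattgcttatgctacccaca
Psme2 probe 1: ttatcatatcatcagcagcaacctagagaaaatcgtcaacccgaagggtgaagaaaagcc
Psme2 probe 2: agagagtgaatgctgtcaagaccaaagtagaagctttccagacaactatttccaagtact
None of the 15 probes has the sequence of another probe on the array, and the accession given for each belongs to its member gene in RefSeq's gene table (GRCm38.p6). The paired probes of Psmb8, and those of Psme2, therefore read different stretches of the same transcript.

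Promoter windows came from RefSeq (GRCm38.p6, 250 bases before to 50 after a gene's start) and were found for 9 of the 10 members. The assembly is of another mouse strain than the C3H line, and differences between the strains were not tested. Tap1 and Psmb9 are read in opposite directions from starts 226 bases apart, and their windows share 275 identical bases. The 250 bases before the start of Tap1 lie on the plus strand at chr17:34187306-34187555 and are shown because both genes fell. Those of Psmb8 (plus strand, chr17:34197945-34198194) hold the only match among the members to TTCNNNGAA, the gamma-activated site of interferon gamma responses. Those of B2m (plus strand, chr2:122147437-122147686) hold a match to the core of the interferon-stimulated response element, a pair of GAAA repeats set apart by any 2 bases. Capitals mark matches to these motifs.
Tap1: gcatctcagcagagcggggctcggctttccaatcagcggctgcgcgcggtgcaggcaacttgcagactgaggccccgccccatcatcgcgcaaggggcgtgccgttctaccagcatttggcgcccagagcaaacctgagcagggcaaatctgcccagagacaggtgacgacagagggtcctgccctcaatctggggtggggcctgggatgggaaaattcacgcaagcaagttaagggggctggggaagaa
Psmb8: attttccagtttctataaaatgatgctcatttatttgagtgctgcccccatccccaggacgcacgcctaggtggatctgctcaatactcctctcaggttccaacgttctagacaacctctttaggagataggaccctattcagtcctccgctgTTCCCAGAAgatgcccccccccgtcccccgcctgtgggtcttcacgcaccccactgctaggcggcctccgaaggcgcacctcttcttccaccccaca
B2m: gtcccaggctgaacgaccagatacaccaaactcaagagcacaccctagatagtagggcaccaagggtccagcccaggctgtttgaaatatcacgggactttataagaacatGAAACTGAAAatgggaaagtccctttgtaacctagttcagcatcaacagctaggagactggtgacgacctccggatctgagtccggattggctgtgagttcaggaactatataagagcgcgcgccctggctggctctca
Both strands were searched over the whole 300-base windows, and these motifs do not overlap each other here. The interferon-stimulated response element core was present in 3.44% of 32851 windows of all genes and in those of Erap1, B2m and Psme1, which are 3 of the 5 members with a window that did not pass the test of expression. It was in 0 of the 4 members with a window that did pass, Tap1, Psmb8, Psmb9 and Psme2. At a share of 3.44%, 4 members are too few to tell 0 from the share of all genes. TTCNNNGAA was in 8.3% of all windows and in that of Psmb8, where it begins 97 bases before the start. CCAAT was in 37.4% of all windows and in those of Tap1, Tapbp, Psmb9 and B2m. The NF-kappaB site was in 1.63% of all windows and in that of B2m. TGACGTCA, the cyclic AMP response element, was in 1.79% and in no member's window. These are matches of letters in a short window and say nothing of binding.

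Both subunits of the peptide transporter, 2 of the 3 immunoproteasome subunits and 1 of the 2 PA28 subunits fell in the 3MC+TPA cells. In limma's fit, with Benjamini-Hochberg adjustment over the 24981 genes tested and a threshold of 0.05, Tap1, Psmb9, Tap2, Psmb8 and Psme2 were lower, 5 of the 10 members, and 0 were higher. The share called lower over all genes was 8.46%, the share called higher 7.28% and the share called either way 15.7%. Of the 5, Tap1, Psmb9 and Tap2 fell by at least 2-fold, against 6.21% of all genes. At an unadjusted p under 0.05, 6 members were lower and 0 higher, and by the methods' t-test, the test per gene that the study's design text names, 5 and 0, none of which passed after adjustment. Over all genes, 17.2% were lower and 16.4% higher at an unadjusted p under 0.05 in limma, and 12.2% and 10.6% by the methods' t-test, and the unadjusted counts below are read against these shares. The median log2 change of the members was -0.78, and that of all genes -0.014, with all genes between -1.37 and 1.12 at the 5th and 95th percentile. The arrays of the groups did not overlap for 9 of the 10 members, each with both 3MC+TPA arrays below both control arrays, which was also so for 32.3% of all genes, while 31.3% of all genes had both exposed arrays above. All 10 changes were below 0, as were 51.1% of all changes. In bulk RNA, fewer cells that express a gene and less RNA per cell cannot be told apart.

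Control array 1 stood above control array 2 for all 10 members, by a median of 0.22 against 0.03 over all genes. Of the 3MC+TPA arrays, array 1 stood above array 2 for 2 members, with a median gap of -0.10 against -0.03 over all genes. Without control array 1 the members' median was -0.65, and without control array 2 it was -0.86. Leaving out either control array left 3 members called lower, Tap1, Tap2 and Psmb9. Without 3MC+TPA array 1, and again without array 2, the 2 called members were Tap1 and Psmb9, with medians of -0.63 and -0.90.

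**Figure D1:**
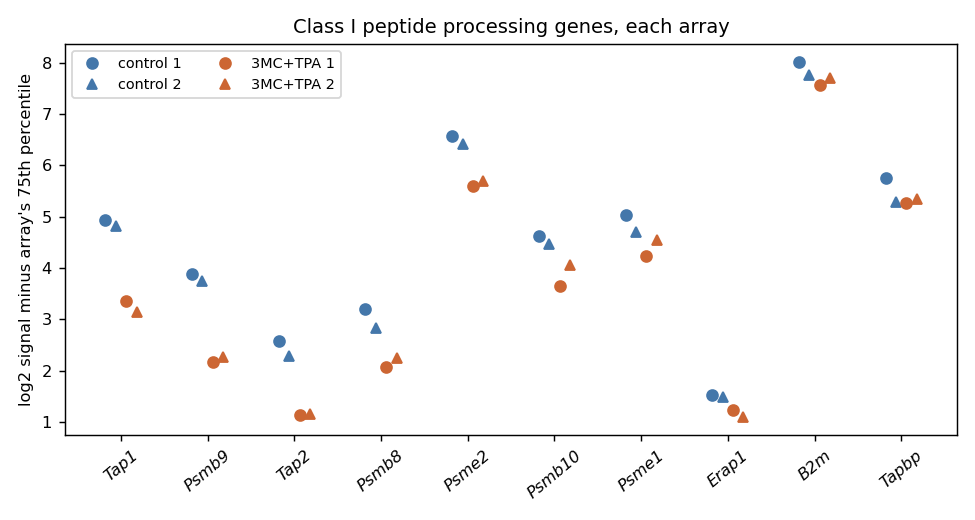
Log2 signal relative to each array's 75th percentile (vertical axis) of the 10 members at their brightest probe, with 1 point per array for the 2 control and the 2 3MC+TPA arrays. The 3MC+TPA points lie below both control points for every gene except Tapbp, with the widest gaps for Psmb9 (1.48) and Tap1 (1.46).

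Tap1 encodes the TAP subunit that pairs with Tap2 to pump peptides into the endoplasmic reticulum. Its brightest probe read 4.94 and 4.81 on control arrays 1 and 2 and 3.36 and 3.15 on 3MC+TPA arrays 1 and 2. Both exposed arrays lay far below both control arrays, and the gap between the groups was 1.46. Tap1 fell 3.08-fold (log2 change -1.62 ± 0.17, SE, n = 2 a group, limma adjusted p = 0.0055).

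The second probe of Tap1 was spotted 8 times on each array. It read 0.51 and 0.49 in control and -0.93 and -0.81 in 3MC+TPA cells. The spots ranged from 0.30 to 0.63 and from 0.38 to 0.58 on the control arrays, and from -1.08 to -0.80 and from -0.97 to -0.71 on the exposed arrays, so no exposed spot reached a control spot. The change at this probe was -1.37 ± 0.15 (SE, adjusted p = 0.0071 over 32107 probes). Both probes of Tap1 were thus called. The array files assign them to different RefSeq transcripts of the gene, and whether each reads 1 transcript alone was not tested.

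Tap2, the other TAP subunit, has 1 probe. It read 2.58 and 2.29 in control cells and 1.13 and 1.15 in 3MC+TPA cells. The exposed arrays were nearly equal and both lay below the control arrays. Tap2 fell 2.45-fold (-1.29 ± 0.17, SE, adjusted p = 0.011). Its call was lost without 3MC+TPA array 1 (log2 change -1.29) and without array 2 (-1.30). It was also lost with no filter on dim probes (adjusted p = 0.062).

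Psmb9, the beta1i subunit of the immunoproteasome, read 3.89 and 3.74 in control and 2.16 and 2.26 in 3MC+TPA cells. Its groups had the widest gap of the 10 members, 1.48. Psmb9 fell 3.04-fold (-1.61 ± 0.16, SE, adjusted p = 0.0049).

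Psmb8, the beta5i subunit, read 3.21 and 2.84 in control and 2.07 and 2.25 in 3MC+TPA cells. The groups stood apart by 0.59, and the control arrays differed from each other by more than the exposed arrays did. Psmb8 fell 1.82-fold (-0.86 ± 0.19, SE, adjusted p = 0.044). This call was close to the threshold and was lost without any 1 of the 4 arrays (adjusted p between 0.054 and 0.17), with the mean of its probes (adjusted p = 0.057), with the replicate block (adjusted p = 0.068) and without scaling (-0.51, adjusted p = 0.11). At its second probe it read 2.84 and 2.41 against 1.76 and 1.95, with a change of -0.77 ± 0.21 (adjusted p = 0.069).

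Psmb10, the beta2i subunit, read 4.62 and 4.46 in control and 3.64 and 4.05 in 3MC+TPA cells. The exposed arrays lay below the control arrays but differed by more between themselves than the control arrays did. The log2 change was -0.69 ± 0.20 (SE, 95% interval -1.21 to -0.18), and the test was not passed (adjusted p = 0.081). It was passed in 2 of 16 alternatives, normexp background correction (adjusted p = 0.045) and an intensity trend in the fit (adjusted p = 0.036). Without scaling the change was -0.34.

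Each of these subunits takes the place of a constitutive one in the core: Psmb8 that of Psmb5, Psmb9 that of Psmb6 and Psmb10 that of Psmb7. None of the constitutive subunits passed the test. Psmb5 changed by -0.17 ± 0.19, Psmb6 by -0.06 ± 0.16 and Psmb7 by -0.06 ± 0.22 (SE, adjusted p = 0.58, 0.83 and 0.89), and for each the arrays of the groups overlapped. All 3 values were above 0 without scaling between the arrays, at 0.19, 0.30 and 0.30.

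The difference between partners was taken within each array, which removes what an array does to both probes alike. Only its change between groups can be read, since the partners are read by different probes. For Psmb9 minus Psmb6 it was -1.08 and -1.41 in control and -2.78 and -2.80 in 3MC+TPA cells, a change of -1.55, or 2.92-fold. For Psmb8 minus Psmb5 the values were -0.91 and -1.33 against -1.71 and -1.92, a change of -0.69. For Psmb10 minus Psmb7 they were 1.17 and 0.84 against 0.40 and 0.33, a change of -0.64. In each of the 3 pairs both exposed arrays lay below both control arrays. This was so for 32.3% of all single genes, and no share over pairs of genes was computed. Psmb8, Psmb9 and Psmb10 already lay so by themselves, so the pairs add no separate support. The exact permutation test over arrays (2-sided) gave p = 0.333 for each, the smallest that 2 arrays against 2 allow, so no pair could pass a threshold of 0.05.

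**Figure D2:**
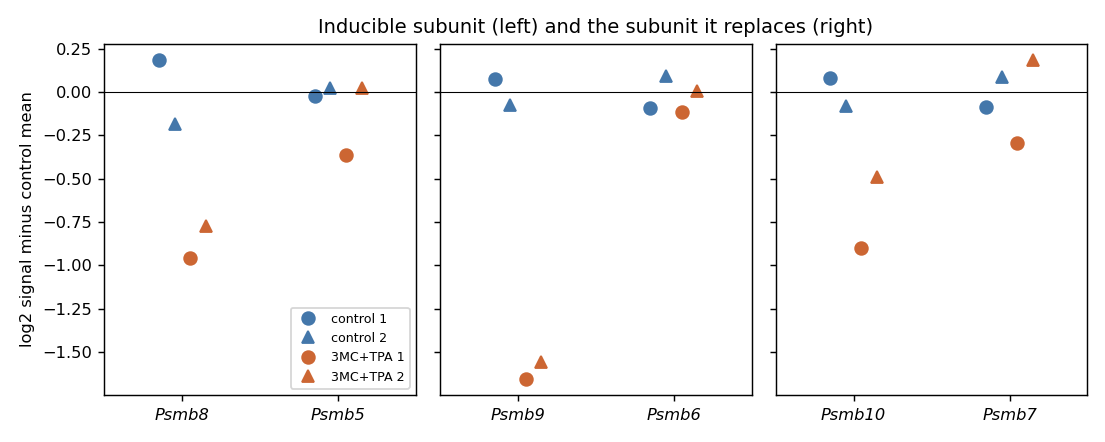
Log2 signal minus the gene's control mean (vertical axis) for an immunoproteasome subunit (left) and the constitutive subunit it replaces (right), 1 panel per pair. Each gene has 1 point per array, for the 2 control and the 2 3MC+TPA arrays. The 3MC+TPA points lie below the control points for all 3 immunoproteasome subunits, with the largest change for Psmb9 at -1.61. They overlap the control points for all 3 constitutive subunits.

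Psme2 encodes the beta subunit of PA28, which opens the gate of the core. It read 6.58 and 6.41 in control and 5.59 and 5.69 in 3MC+TPA cells. The gap between the groups was 0.72, wider than the difference between arrays of either group. Psme2 fell 1.81-fold (-0.86 ± 0.16, SE, adjusted p = 0.027). At its second probe the values were 5.64 and 5.59 against 4.63 and 4.80, with a change of -0.90 ± 0.16 (adjusted p = 0.024). Leaving out any 1 array ended the call at the first probe (log2 change between -0.94 and -0.77). So did leaving out the scaling (-0.50, adjusted p = 0.09) and using no filter on dim probes (adjusted p = 0.085).

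Psme1, the alpha subunit that shares the PA28 ring with Psme2, read 5.03 and 4.71 in control and 4.24 and 4.55 in 3MC+TPA cells. Its probe was spotted 8 times, and the SD over spots of an array was between 0.02 and 0.04. The arrays of a group differed by far more than the spots of an array did. The log2 change was -0.48 ± 0.20 (SE, 95% interval -0.99 to 0.04), which did not pass (adjusted p = 0.17), and -0.12 without scaling.

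Erap1, the aminopeptidase that trims peptides in the endoplasmic reticulum, read 1.53 and 1.49 in control and 1.23 and 1.09 in 3MC+TPA cells. The groups did not overlap, and the log2 change was -0.35 ± 0.15 (SE, 95% interval -0.74 to 0.04, adjusted p = 0.18). Without scaling between the arrays it was 0.

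B2m, the light chain of every classical class I molecule, read 8.02 and 7.76 in control and 7.57 and 7.71 in 3MC+TPA cells. The groups were apart by 0.05 only, less than the arrays of a group. The log2 change was -0.25 ± 0.17 (SE, 95% interval -0.70 to 0.19, adjusted p = 0.37), and 0.10 without scaling. At the second probe it was -0.26 ± 0.15 (adjusted p = 0.29). The interval at the first probe does not reach a 2-fold fall.

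Tapbp encodes tapasin, which bridges TAP and the class I molecule waiting for a peptide. It read 5.76 and 5.28 in control and 5.27 and 5.34 in 3MC+TPA cells, so that the groups overlapped, and control array 1 stood above the other 3 arrays. The log2 change was -0.21 ± 0.21 (SE, 95% interval -0.75 to 0.33, adjusted p = 0.53), 0.14 without scaling and 0.03 without control array 1. At the second probe the values were 1.04 and 0.69 against 0.39 and 0.31, which did not overlap. The change there was -0.51 ± 0.19 (adjusted p = 0.13).

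By probe, 7 of the 15 were called lower, and 0 higher, against 8.12% and 7.35% of the 32107 probes tested. They were both probes of Tap1, both of Psme2, probe 1 of Psmb8 and the single probes of Tap2 and Psmb9. The groups did not overlap at 14 of the 15, against 31.4% of all probes, and the change was below 0 at all 15, against 49.8%. All 15 were well above background on the 4 arrays, and none of their 29 spots an array was marked as an outlier by the scanner. Probes of a gene read the same RNA and are not independent.

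**Figure D3:**
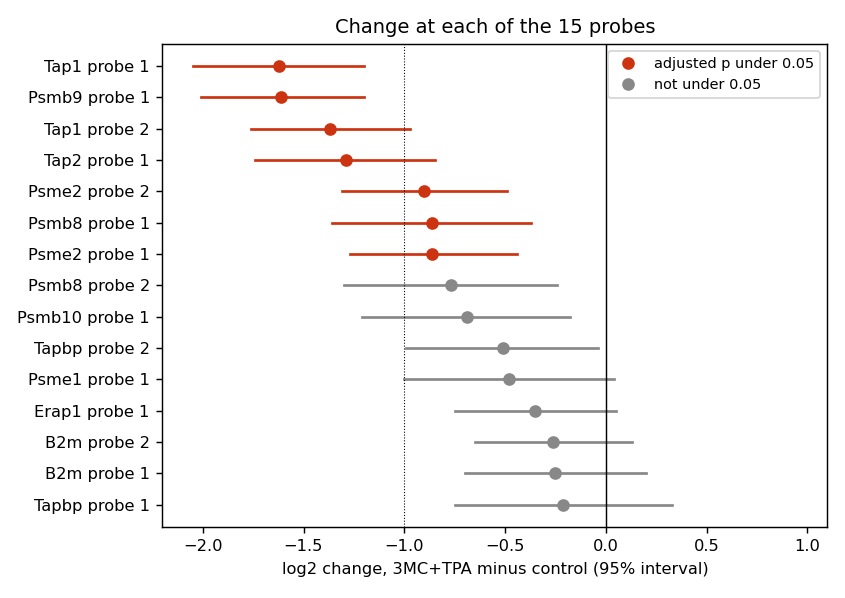
Log2 change (3MC+TPA minus control, horizontal axis) at each of the 15 probes, with its 95% interval from the fit; red marks an adjusted p under 0.05 and the dotted line a 2-fold fall. The points run from -1.62 at Tap1 probe 1 to -0.21 at Tapbp probe 1, and 7 are red.

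Of the members called, Psmb9, Tap1, Psmb8 and Tap2 follow one another on chromosome 17 in the MHC region, in RefSeq's gene order. The genes around the members were looked at after the values were seen. The 3 genes before Psmb9 are H2-DMa, H2-DMb2 and H2-DMb1, which encode the exchange factor that loads peptides on class II molecules. All of them fell. H2-DMb1 read 1.81 and 1.73 in control and -1.32 and -1.35 in 3MC+TPA cells (-3.11 ± 0.15, adjusted p = 0.00072). H2-DMb2 changed by -2.82 and H2-DMa by -1.81 (adjusted p = 0.0015 and 0.0038), with H2-DMb2 at -1.48 by the mean of its probes. The products of the H2-DMb genes are near-identical, and their probes may share signal. These 3 calls held with each array left out. The 3 genes after Tap2, H2-Ob, H2-Ab1 and H2-Aa, were not well above background on any array.

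Psme1 and Psme2 lie on chromosome 14 with 1 gene between them, Emc9 (Fam158a in the files), a subunit of a membrane protein insertion complex. Emc9 fell from 1.13 and 1.12 to -0.41 and -0.13 (-1.40 ± 0.17, adjusted p = 0.0092). Beyond Psme2, Irf9, a transcription factor of the type I interferon response, fell by 0.73 on the log2 scale (adjusted p = 0.043). Rnf31, which lies between Psme2 and Irf9, changed by -0.21 and was not called. Nor were Pck2 (0.15), Dcaf11 (-0.34) and Rec8 (-0.09), so that 2 of the 6 tested neighbours in this block fell. Without 3MC+TPA array 1 the adjusted p of Emc9 was 0.053, and that of Irf9 was between 0.078 and 0.15 with any 1 array left out. Of the 16 neighbours tested at Tapbp, B2m, Erap1 and Psmb10, limma called 0. At an unadjusted p under 0.05, 2 of these were lower and 3 higher (17.2% and 16.4% over all genes), and by the methods' t-test 3 and 3. Over all 6 blocks, 5 of 25 tested neighbours fell and 0 rose, against 8.46% and 7.28% of all genes.

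**Figure D4:**
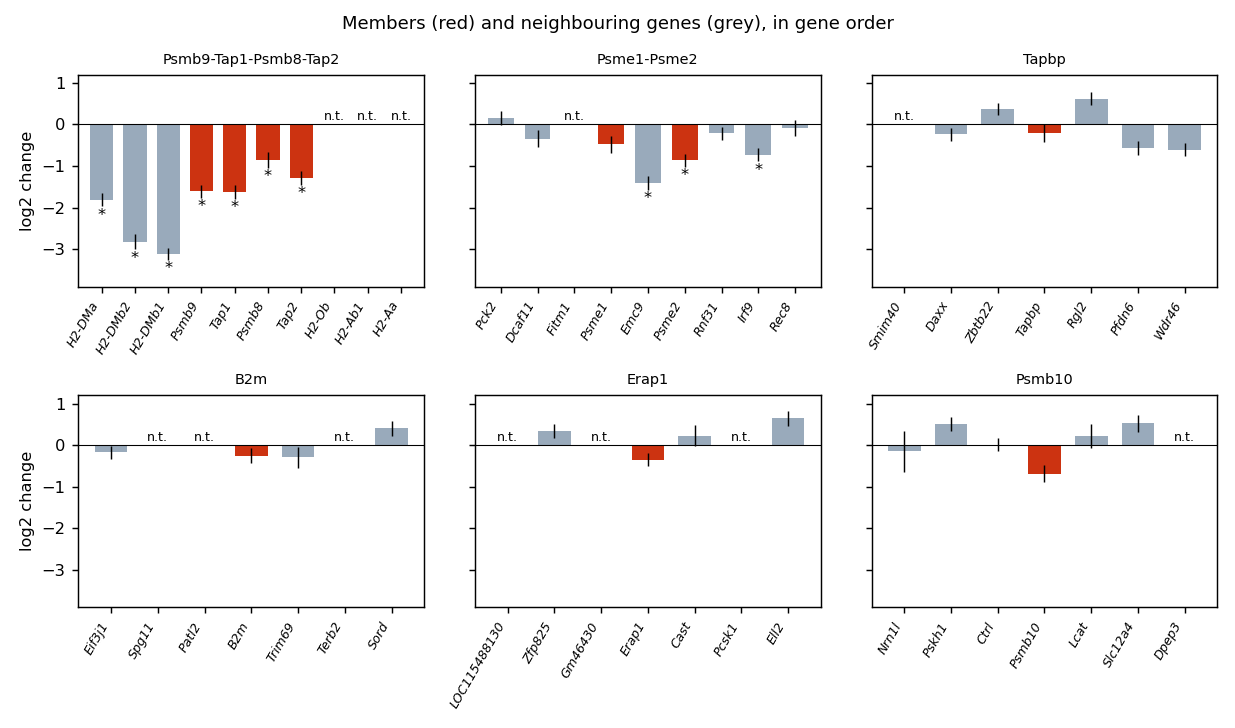
Log2 change (3MC+TPA minus control, vertical axis) of the members (red) and up to 3 RefSeq genes on either side (grey), in gene order and not to distance, 1 panel per block. Bars start at 0 and lines are standard errors of the fit; an asterisk marks an adjusted p under 0.05 and n.t. a gene not tested. The asterisks lie in the Psmb9 to Tap2 and Psme1 to Psme2 blocks.

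Genes that act beside the members were counted in 7 further lists, read against 8.46% of all genes called lower and 7.28% called higher. At an unadjusted p under 0.05 these shares are 17.2% and 16.4% in limma, and 12.2% and 10.6% by the methods' t-test. Of 17 class I heavy chain genes tested, 11 fell and 0 rose, and the median change was -0.98. At an unadjusted p under 0.05, 12 were lower and 0 higher, and by the methods' t-test 8 and 0, none after adjustment. H2-D1, a classical heavy chain, read 7.31 and 6.87 in control and 6.17 and 6.03 in 3MC+TPA cells (-0.99 ± 0.21, adjusted p = 0.036). The other classical gene, H2-K1, changed by -0.69 ± 0.23 and did not pass at its brightest probe (adjusted p = 0.11), but did with the mean of its 3 probes (-0.97, adjusted p = 0.037). Without scaling H2-D1 stood at -0.64 and did not pass. Among non-classical genes, H2-T22 fell 2.45-fold and H2-T10 2.20-fold (adjusted p = 0.01 and 0.011). Neither exposed array was well above background for H2-T24, which was tested only through the control arrays, where it is high. Its place among the 11 rests on that filter. H2-T24 was lower by at least 2-fold. With normexp background correction its change was -0.78, so the bound does not hold there. The count of 11 became 3 without control array 1, 10 without control array 2 and 1, H2-T24, without either 3MC+TPA array. Heavy chain genes are near-identical copies, and a probe may read more than 1 of them.

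Other proteasome genes were counted in 3 lists. Of the 14 constitutive core subunits, 0 were called in either direction by limma. At an unadjusted p under 0.05, 2 were lower and 0 higher, and by the methods' t-test without adjustment also 2 and 0. All 14 changes were below 0, between -0.54 (Psma6, adjusted p = 0.07) and -0.02, with a median of -0.19, as were 51.1% of all changes. This shared direction depended on the scaling. Without scaling Psma6 stood at -0.19, and Psmb5, Psmb6 and Psmb7 stood above 0, at 0.19, 0.30 and 0.30. Of the 18 genes of the 19S cap, which unfolds ubiquitin-tagged proteins, 0 were called, 1 was lower and 1 higher at an unadjusted p under 0.05, and by the methods' t-test 2 and 2. Their median change was 0.02, and Psmd8 stood highest at 0.61 (adjusted p = 0.064). Among 8 assembly factors and other activators, 0 were called, against 4 lower and 1 higher without adjustment and 3 and 1 by the methods' t-test. Pomp, which helps build new cores and the immunoproteasome in particular, changed by -0.59 ± 0.16 (adjusted p = 0.065), and Psmg3, an assembly chaperone, by -0.68 ± 0.19 (adjusted p = 0.075). With normexp, Psma6, Psmd8 and Psmg3 passed (adjusted p = 0.029, 0.026 and 0.034).

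Loading partners and quality control factors of the endoplasmic reticulum showed 1 call in 12, upward. At an unadjusted p under 0.05, 0 were lower and 2 higher, and by the methods' t-test 1 and 2. Ganab, the catalytic subunit of glucosidase II, which trims glycans before calnexin binds, rose 1.56-fold (0.64 ± 0.15, adjusted p = 0.047). This call was lost without any 1 of the 4 arrays (log2 change between 0.61 and 0.68). It was also lost with the mean of Ganab's probes (0.49, adjusted p = 0.085) and with the replicate block (adjusted p = 0.08). The chaperones Calr, Canx and Pdia3, which hold the heavy chain while it folds and loads, changed by -0.35, -0.06 and -0.16 (adjusted p = 0.29, 0.84 and 0.55). Without scaling they stood at 0, 0.30 and 0.19. Of 10 cytosolic and other peptidases, 0 were called, with 0 lower and 1 higher at an unadjusted p under 0.05 and 0 and 2 by the methods' t-test. Ide, insulin-degrading enzyme, stood highest there at 0.47 (adjusted p = 0.11, and 0.039 with normexp).

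Of 23 tested regulators of class I transcription, mostly of the interferon pathway, 6 fell and 0 rose, against 9 and 1 without adjustment and 7 and 3 by the methods' t-test without adjustment. Stat2, a transcription factor of the type I interferon response, fell 2.50-fold, and Ifnar2, a chain of the type I interferon receptor, 2.34-fold (adjusted p = 0.02 and 0.0094). Jak2, a kinase of the interferon gamma receptor, fell from 2.41 and 3.16 to 1.39 and 1.03 (adjusted p = 0.028). With the mean of its probes it did not pass (-1.25, adjusted p = 0.063). Socs1, which restrains the same kinases, also fell (-0.65, adjusted p = 0.047), so the list holds an inhibitor among its called genes, besides Irf9 given above. The count of 6 became 3 without either control array and 0 without either 3MC+TPA array, where the adjusted p of Ifnar2 was 0.06 each time.

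Irf1, a transcription factor of many of the members, read 4.89 and 4.78 in control and 4.22 and 4.24 in 3MC+TPA cells, which missed the threshold (-0.60 ± 0.15, adjusted p = 0.057). It passed with normexp (adjusted p = 0.021) and under the filter that asks for all 4 arrays (0.045). So it did with the mean of its probes (0.04) and with the intensity trend (0.019). Irf1 did not pass with quantile normalization (0.084), median scaling (0.07), no filter on dim probes (0.11) or the replicate block (0.094). By the methods' t-test after adjustment it did not pass either (0.14). Without scaling the change was -0.25. Nlrc5, the transactivator of class I genes, lay near background, at -4.67 and -4.14 in control and -4.58 and -4.48 in 3MC+TPA cells, and no difference was detectable (-0.12 ± 0.22, adjusted p = 0.74; 0.23 without scaling and 0.14 without control array 2). The transcript of interferon gamma itself, Ifng, and that of the class II transactivator, Ciita, were not well above background on any array, and Ifnb1 was so on 1 control array.

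**Figure D5:**
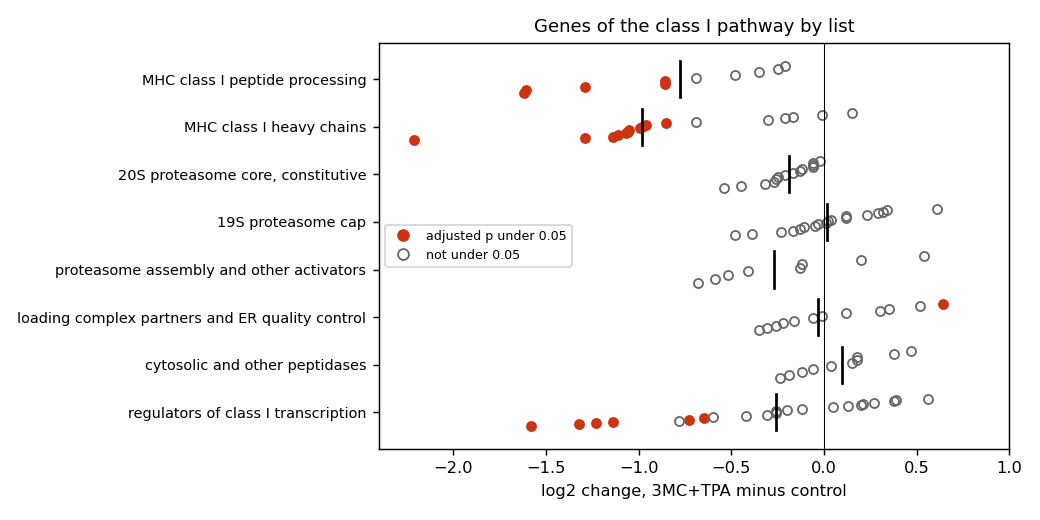
Log2 change (3MC+TPA minus control, horizontal axis) of every tested gene of the members' list and 7 further lists, 1 point per gene, red where the adjusted p is under 0.05; vertical ticks are medians. Red points lie below 0 in the members, the heavy chains and the regulators, and the single red point above 0 is Ganab at 0.64.

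Markers of cell types were read on the same arrays. All 10 fibroblast markers were tested and their summed level was 10.82 to 10.95 in control and 10.67 to 10.73 in 3MC+TPA cells (log2 of the sum). Thy1 rose, from 2.99 and 0.87 to 4.78 and 5.03, and the PDGF receptor genes Pdgfra and Pdgfrb fell by 1.48 and 1.03 on the log2 scale (adjusted p between 0.02 and 0.047). Leaving out control array 1 put the log2 change of Thy1 at 4.04, and leaving out control array 2 put it at 1.91. Neither Thy1 nor Pdgfra passed without a 3MC+TPA array, and Pdgfrb did not pass with any 1 array left out (adjusted p between 0.052 and 0.10). Of 12 leukocyte markers, 5 were tested, and their summed level was -0.78 to -0.49 in control and -1.04 to -0.75 in 3MC+TPA cells. Coro1a was called lower, and was not with any 1 array left out (adjusted p between 0.069 and 0.14). The defining leukocyte genes Ptprc, Itgam, Emr1, Lyz2, Itgax, Cd79a and Ncr1 were not well above background on any array. Epithelial markers (3 of 6 tested, 0 called, 0 at an unadjusted p under 0.05) stood at -2.04 to -1.84 and -2.23 to -1.81. Of 5 endothelial markers, Pecam1, Cdh5, Kdr and Tie1 were not well above background on any array. Tek was so on the 3MC+TPA arrays alone, and was tested only through them. It read -5.45 and -5.97 in control and -3.94 and -3.89 in 3MC+TPA cells, at least 1.76-fold higher. This call was lost without either 3MC+TPA array (log2 change 1.82 and 1.77). The part of the fibroblast marker changes in the members' levels was not tested.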

How the data were processed

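RNA of 4 samples was read in 1 colour (Cy3) on a custom Agilent mouse array. Per the file headers, Feature Extraction 10.7.3.1 made the processed intensity of each spot (background-subtracted and detrended). The authors' deposited series table holds log2 values, made in Gene Spring GX 11.5 per the submitters' processing notes. At all 15 member probes they equalled the values computed here within 0.01, in the same direction and uncentred, with column medians of -4.29 and -4.31 (control) and -4.39 and -4.35 (3MC+TPA).

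Values are log2 of the processed signal, averaged over the spots of a probe, minus the array's 75th percentile over non-control probes. The 1319 control spots and the outlier spots (20 to 68 an array) were left out, and no spot was saturated. Between 32125 and 32512 of 61657 spots an array were well above background, and the number of arrays limits the precision. A gene is a gene name read by its brightest probe, tested where this probe was well above background on both arrays of at least 1 group. A bound ("at least") sets such a group against the dimmest well-measured probe. Groups came from the sample titles and were compared with limma 3.58.1 (lmFit, eBayes, 2-sided) in R 4.3.3, Benjamini-Hochberg adjustment over all genes, threshold 0.05. Fit errors are SE. In simulated data (24919 genes, this comparison), 1 of 50 genes changed 2-fold was recovered, 23 of 50 at 4-fold and 47 of 50 at 16-fold, with 3 false calls. Only 200 genes were changed there, while 3931 were called in the data, so this recovery need not hold for the reported fit.

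The groups share replicate numbers. Differences between replicates 1 and 2 were uncorrelated between groups (r = 0.0028 across 24919 genes, which are not independent), so the numbers were not used as pairs. The members, lists and named genes were chosen with earlier results of these data known; all 10 members are named, and in other lists the called genes or the largest change and the best known partners. Values of 1 called gene of the regulator list are not reported here. Neighbouring genes and motifs were added after the values were seen. No coordinates of the array's own grid (mm9) were used.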

Additional observations from a re-analysis of the deposited data

How the results depend on the processing

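Alternatives were another background correction (normexp), the authors' deposited values, other scalings, other filters, the mean of probes, limma with an intensity trend, the methods' t-test, each array left out and the replicate block. The 5 members called lower became 6 with normexp and with the intensity trend, 3 without scaling, 2 with no filter on dim probes, 0 by the methods' t-test after adjustment and 2 to 3 with an array left out. The 7 member probes became 9 and 9, then 4, 3, 0 and 2 to 5 under the same settings. Of other pathway genes, 18 were called, against 29 with normexp, 26 with the trend, 2 with no filter, 33 and 0 by the methods' t-test before and after adjustment, and 1 to 13 with an array left out. Over all genes 3931 were called, against 5068 with normexp, 5177 with the trend, and 6723, 933, 23 and 1110 to 3287 without scaling, with no filter, by the adjusted test and with an array left out. Tap1 and Psmb9 lost their call under the adjusted test alone, of 16 alternatives. With the replicate block, 4 members, 5 member probes, 15 other pathway genes and 3460 genes were called, Psmb8 losing its call (adjusted p = 0.068).

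Without scaling, the median of all genes moved to 0.34, the share of called genes that were higher from 46.2% to 79.1%, and the members' median to -0.42, with all 10 members below the median of all genes. Values that changed sign without scaling were Tapbp 0.14, Erap1 0, B2m 0.10, Psmb5 0.19, Psmb6 0.30, Psmb7 0.30, Nlrc5 0.23, Calr 0, Canx 0.30 and Pdia3 0.19. With quantile normalization and median scaling, they were Psmb6 0.06 and 0.01, Psmb7 0.01 and 0.01, and Canx 0.06 and 0.01, and with normexp Psmb7 0.01. Without control array 1 they were Tapbp 0.03 and Canx 0.07. Without control array 2 they were Psmb6 0.03, Psmb7 0.03 and Nlrc5 0.14, and without 3MC+TPA array 1 Psmb5 0.03, Psmb6 0 and Psmb7 0.19. With an array left out the same genes ranged down to -0.45 (Tapbp), -0.37 (Psmb5), -0.15 (Psmb6), -0.30 (Psmb7), -0.39 (Nlrc5) and -0.19 (Canx). None of these was called in the reported fit. The cause of these shifts was not tested.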
